A study of Homo sapiens with 118 samples.

Results

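The subject is 9 transcription factors that set and maintain the identity of hepatocytes: HNF4A, FOXA1, FOXA2, FOXA3, CEBPA, CEBPB, ONECUT1, PROX1 and TBX3. They were taken by gene symbol from a count table that names 19470 symbols, with every detector probe for each of the 9 included. All 9 were present, on 11 probes (2 each for ONECUT1 and TBX3). Of the 11 probes, 9 had enough counts to be tested in all chemicals, and 2, both for TBX3, passed the filter of no single chemical. HepaRG is an established human cell line from a liver tumour, used here as differentiated cells kept in culture before dosing. The cells received 1 of 8 histone deacetylase inhibitors, renewed daily over 72 hours. There were 5 concentrations of each, called C1 (lowest) to C5 (highest), and 118 libraries in 40 groups. Expression was measured in cell lysates by TempO-Seq, which ligates and sequences pairs of probes bound to a transcript. In 38 groups there were 3 libraries, 1 from each of 3 HepaRG batches per the labels, and panobinostat C3 and trichostatin A C4 had 2, without batch 3. These batches are lots of 1 cell line and not donors.

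Concentrations differed between the inhibitors. From C1 to C5, apicidin ran from 0.041722 to 0.86 µM, mocetinostat from 0.177222 to 3.9 µM, panobinostat from 0.001468 to 0.084 µM and trichostatin A from 0.018811 to 1.5237 µM. Scriptaid ran from 4.94 to 94.5 µM, tacedinaline from 1.143333 to 44 µM and vorinostat from 0.404778 to 23.5 µM. For valproic acid the sample labels give 100.478 to 3038 but the treatment protocol lists values far below these, so its unit is not settled. Apicidin, mocetinostat, panobinostat, trichostatin A and valproic acid lay on plate H and the other 3 on plate E. Solvent-control libraries were not used here, so each group was compared with C1 of its own chemical. In bulk lysates of this kind, fewer cells of a type and less RNA per cell cannot be told apart.

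HNF4A is a nuclear receptor that binds the promoters and enhancers of a large share of hepatocyte genes. FOXA proteins open compacted chromatin at liver enhancers, C/EBP proteins drive metabolic and acute-phase genes, and ONECUT1 (HNF6), PROX1 and TBX3 act from the time the liver bud forms. These factors bind each other's regulatory regions, so that they form a cross-regulated network. The inhibitors keep histones and many other proteins acetylated by blocking the enzymes that take acetyl groups off.

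The promoters of HNF4A and FOXA1 are shown because transcripts of these genes fell in 6 of the 8 chemicals, and because 3 of the 8 promoter windows found for these genes held a binding motif of the network. Each window holds the 250 bases before a RefSeq transcription start in GRCh38.p14, 5′ to 3′ on the strand of the gene, with motif matches in capitals. Windows were found for 6 of the 9 genes, and none was found for FOXA2, PROX1 and TBX3. The motifs, searched on both strands, were GTTAAT (HNF1), ATTGAT (ONECUT), TGTTTAC and TGTTTGC (FOXA), TTNNGCAA (C/EBP) and CAAAGTCCA (HNF4), and no match overlapped another. Among 35116 promoter windows of this length they were present in 6.23%, 5.58%, 2.98%, 3.23%, 9.05% and 0.325%, in that order. The upstream start of HNF4A (chr20:44355449-44355698, plus strand) had an ONECUT match 33 to 28 bases before the start. Its downstream start (chr20:44400989-44401238, plus strand) had 2 HNF1 matches, 73 to 68 and 66 to 61 bases before it, and an ONECUT match 200 to 195 bases before it. FOXA1 (chr14:37595250-37595499, minus strand) had a match to the second FOXA form 235 to 229 bases before the start.
HNF4A upstream start: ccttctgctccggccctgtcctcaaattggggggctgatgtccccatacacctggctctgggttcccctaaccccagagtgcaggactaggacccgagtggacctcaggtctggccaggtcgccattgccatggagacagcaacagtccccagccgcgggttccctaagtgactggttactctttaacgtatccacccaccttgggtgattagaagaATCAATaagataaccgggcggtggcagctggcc
HNF4A downstream start: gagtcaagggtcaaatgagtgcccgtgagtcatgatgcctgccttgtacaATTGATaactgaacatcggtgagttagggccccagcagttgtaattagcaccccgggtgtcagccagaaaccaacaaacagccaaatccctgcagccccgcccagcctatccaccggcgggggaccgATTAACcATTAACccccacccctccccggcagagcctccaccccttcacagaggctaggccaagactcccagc
FOXA1: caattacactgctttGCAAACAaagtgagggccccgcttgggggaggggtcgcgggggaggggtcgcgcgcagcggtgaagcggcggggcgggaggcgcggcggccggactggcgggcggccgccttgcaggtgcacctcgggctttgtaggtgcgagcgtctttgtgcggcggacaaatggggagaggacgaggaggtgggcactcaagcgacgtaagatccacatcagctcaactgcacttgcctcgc
The downstream start is known as the one used in adult liver and the upstream one as that of fetal liver and pancreas. Which of the transcripts the HNF4A probe reads is not given in the sources used here. The windows of ONECUT1, CEBPA, FOXA3 and CEBPB held none of these letters. A match of letters is a description and not a bound site.

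The cells at C1 carried the markers of hepatocytes. All 8 hepatocyte markers (ALB, APOA1, TTR, SERPINA1, TF, FGB, CPS1 and ASGR1) were present, and their summed level in C1 libraries lay between 12906.5 and 64360.2 CPM, which are counts relative to library size after TMM scaling. EPCAM, a marker of biliary and progenitor cells, had at most 3 counts in all 118 libraries. Total counts per library ran from 1061359 to 5250260. Before the results, 1 library is set apart: trichostatin A C1 replicate 3, which holds the lowest of those marker sums, against 50080.8 and 54163.2 CPM in the other two libraries of its group. Scriptaid C4 replicate 3 and mocetinostat C2 replicate 3 also differed more from their group than most libraries did, and counts without each of these 3 libraries are given below.

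At C1 the 8 factors that passed the filter were all measured. PROX1 had 37.1 to 173 CPM over the 24 C1 libraries, with a median of 113, and CEBPB had 125 to 320, with a median of 196. The medians were 15.6 CPM for HNF4A, 21.6 for FOXA1, 12.8 for FOXA2, 6.85 for FOXA3 and 13.3 for CEBPA. The ONECUT1 probes had medians of 6.89 (ONECUT1_15460) and 5.53 CPM (ONECUT1_4810). Probes differ in efficiency, so these levels rank neither genes nor probes. In trichostatin A C1 replicate 3 HNF4A was at 3.29 CPM, CEBPA at 0.897, FOXA3 at 0.299 and PROX1 at 37.1, each the lowest value among the C1 libraries.

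Of these factors, 33 of 72 tests were called lower at the highest concentration and 0 higher. A probe was called when its Benjamini-Hochberg adjusted p-value in edgeR's quasi-likelihood test lay below 0.05 with a change of 1.5-fold or more. With 9 probes in 8 chemicals there were 72 tests for each concentration. At C2 0 of 72 were called, with 3 at an unadjusted p under 0.05, against 0.0206% of all features called lower and 0.0659% called higher. At C3 7 of 72 were lower (3.16% of all features) and 0 higher (2.82%), and at C4 22 were lower (8.14%) and 0 higher (7.85%). At C5 33 of 72 were lower, against 13.4% of all features, and 0 were higher, against 11.6%. The median log2 change of the 72 at C5 was -1.21, and that of all features was 0.02. A slope fitted across all concentrations on their log2 scale, given as the change it predicts over the range tested (the trend), was called lower in 30 of 72 (12.7% of all features) and higher in 0 (12.7%).

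The counts at C5 varied by chemical. Of 9 probes, 7 were lower in apicidin (15% of all features), 6 in mocetinostat (15.7%) and 6 in tacedinaline (20.1%). In vorinostat 5 were lower (24.9%), in scriptaid 4 (17%), in panobinostat 4 (9.46%) and in valproic acid 1 (6.22%). In trichostatin A 0 of 9 were lower, with 0 at an unadjusted p under 0.05, and only 0.0154% of all features were called lower there. At C3 the lower calls were 3 in apicidin, 2 in mocetinostat and 2 in tacedinaline, where 8.39%, 5.14% and 6.46% of all features were lower. None of the 9 was called at C3 in vorinostat (3.88%), scriptaid (0.876%), valproic acid (0.84%), panobinostat (0%) or trichostatin A (0%). At C4 there were 6 in mocetinostat (11.6%), 6 in tacedinaline (16.4%), 4 in vorinostat (16.7%) and 3 in apicidin (11.2%). Valproic acid had 2 (6.35%), scriptaid 1 (2.67%), panobinostat 0 (1.4%) and trichostatin A 0 (0%). By trend there were 7 in mocetinostat (17.7%), 7 in tacedinaline (21.5%), 5 in apicidin (17.2%), 5 in vorinostat (23%) and 4 in panobinostat (9.35%). Scriptaid had 1 by trend (6.18%), valproic acid 1 (7.73%) and trichostatin A 0 (0.0462%). The summed hepatocyte markers also moved. From C1 to C5 their group median went from 42241.8 to 4249.31 CPM in tacedinaline, from 59229.5 to 9090.24 in mocetinostat, from 46208.3 to 18841.9 in valproic acid and from 50080.8 to 40821.5 in trichostatin A. The part of this shift in the members' values was not tested.

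**Figure D1:**
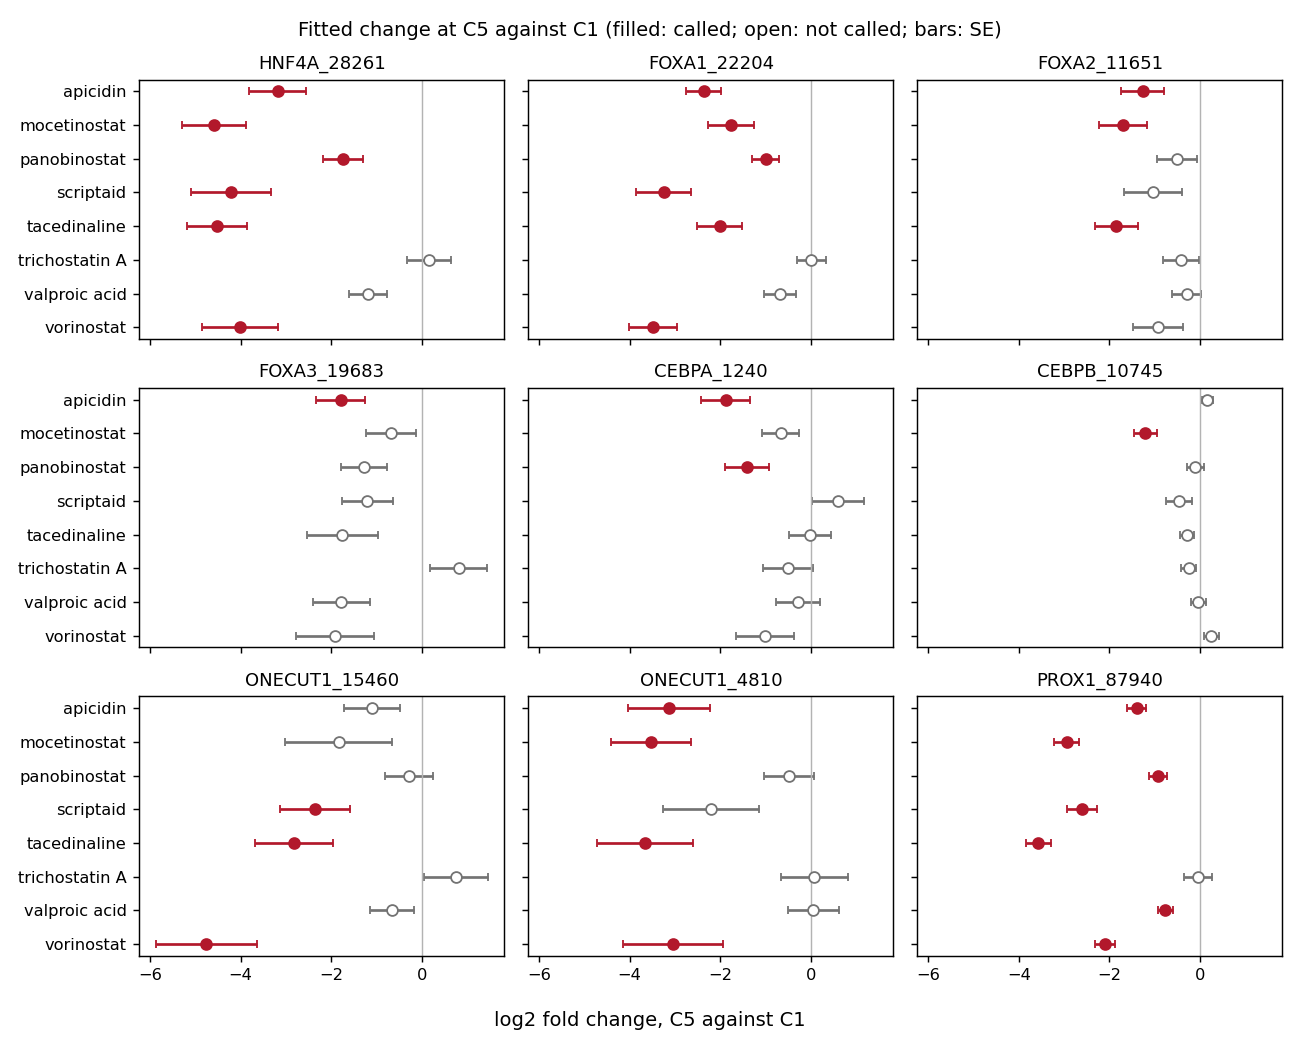
Fitted log2 change at C5 against C1 with its SE (x axis) in 8 chemicals (y axis), 1 panel for each of the 9 tested probes, from edgeR with 3 libraries in each group. Filled points are called. HNF4A reaches -4.59 in mocetinostat, PROX1 is called in 7 chemicals and CEBPB in 1.

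HNF4A (chr20:44355699-44434596, plus strand) fell at C5 in 6 of 8 chemicals. In mocetinostat it had 22.3, 21.1 and 27.0 CPM in batches 1, 2 and 3 at C1, and 0.521, 1.81 and 0.306 at C5. The groups lay far apart, and the fitted change was -4.59 ± 0.71 (SE; n = 3 and 3; edgeR adjusted p = 0.000127), which left 4.16% of the C1 level. In tacedinaline the C1 values were 14.2, 17.7 and 38.1 CPM and the C5 values 1.5, 1.4 and 0 (log2 change -4.52 ± 0.66, edgeR adjusted p = 3.22e-07). The C1 libraries differed by more than a factor of 2 among themselves, and all 3 were above every C5 library. In vorinostat HNF4A was at 20.5, 11.0 and 25.5 CPM and then at 4.09, 0 and 0 (-4.01 ± 0.84, edgeR adjusted p = 0.000151), so that the only counts at C5 came from batch 1. In scriptaid it was at 20.6, 12.6 and 12.6 CPM and then at 1.27, 0.568 and 0.483, which are 3, 2 and 1 counts (-4.21 ± 0.89, edgeR adjusted p = 0.00148).

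The fitted changes of HNF4A were smaller in the other chemicals, and pairs of chemicals were not tested against each other. In apicidin the CPM were 14.5, 11.3 and 16.2 at C1 and 1.05, 1.22 and 2.23 at C5, a log2 change of -3.19 ± 0.62 (edgeR adjusted p = 0.000535). In panobinostat they were 10.4, 21.8 and 15.1 and then 6.98, 1.68 and 5.78 (-1.74 ± 0.44, edgeR adjusted p = 0.0082). The panobinostat call was lost without batch 2 (-0.98, adjusted p = 0.159), without batch 3 (-1.91, adjusted p = 0.0567) and in a joint fit of all libraries (-1.72, adjusted p = 0.0502), and it was kept without batch 1. Valproic acid gave 14.5, 18.8 and 12.8 CPM at C1 and 4.86, 10.2 and 5.08 at C5. These groups did not overlap, and the log2 change of -1.19 ± 0.42 was not called (edgeR adjusted p = 0.0738), although DESeq2 called it (adjusted p = 0.0446). In trichostatin A HNF4A was at 17.4, 11.0 and 3.29 CPM at C1 and 6.09, 13.0 and 16.4 at C5, which overlapped (0.16 ± 0.49, edgeR adjusted p = 0.96). Without C1 replicate 3 the value was -0.27 (adjusted p = 0.846).

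The lowest concentration at which HNF4A was called varied by chemical. A difference between chemicals at C3 or C4 was not tested. At C3 HNF4A was called in apicidin (-1.80 ± 0.56, edgeR adjusted p = 0.0319) and mocetinostat (-2.93 ± 0.62, edgeR adjusted p = 0.00494). The apicidin call at C3 was lost without batch 2 (edgeR adjusted p = 0.191) or 3 (0.19). The mocetinostat call at C3 was lost without batch 2 (edgeR adjusted p = 0.0528) or 3 (0.0557). In tacedinaline all C3 libraries lay below all C1 libraries, and the change was not called (-0.99 ± 0.49, edgeR adjusted p = 0.196). At C4 HNF4A was called in apicidin, mocetinostat, tacedinaline (-3.91 ± 0.60) and vorinostat (-2.57 ± 0.65). The apicidin call at C4 was lost without batch 3 (edgeR adjusted p = 0.057). At scriptaid C4 the values were 26.5, 6.07 and 0.721 CPM in batches 1, 2 and 3, a range that overlapped C1. The trend of HNF4A was called in 5 chemicals and not in scriptaid (-1.87 ± 0.89, edgeR adjusted p = 0.182), trichostatin A or valproic acid. In 5 of 8 chemicals HNF4A had the lowest C5 change of the 9 probes, and over the 6 chemicals where it was called its change lay between the 1.73 and the 4.18 percentile of all features.

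**Figure D2:**
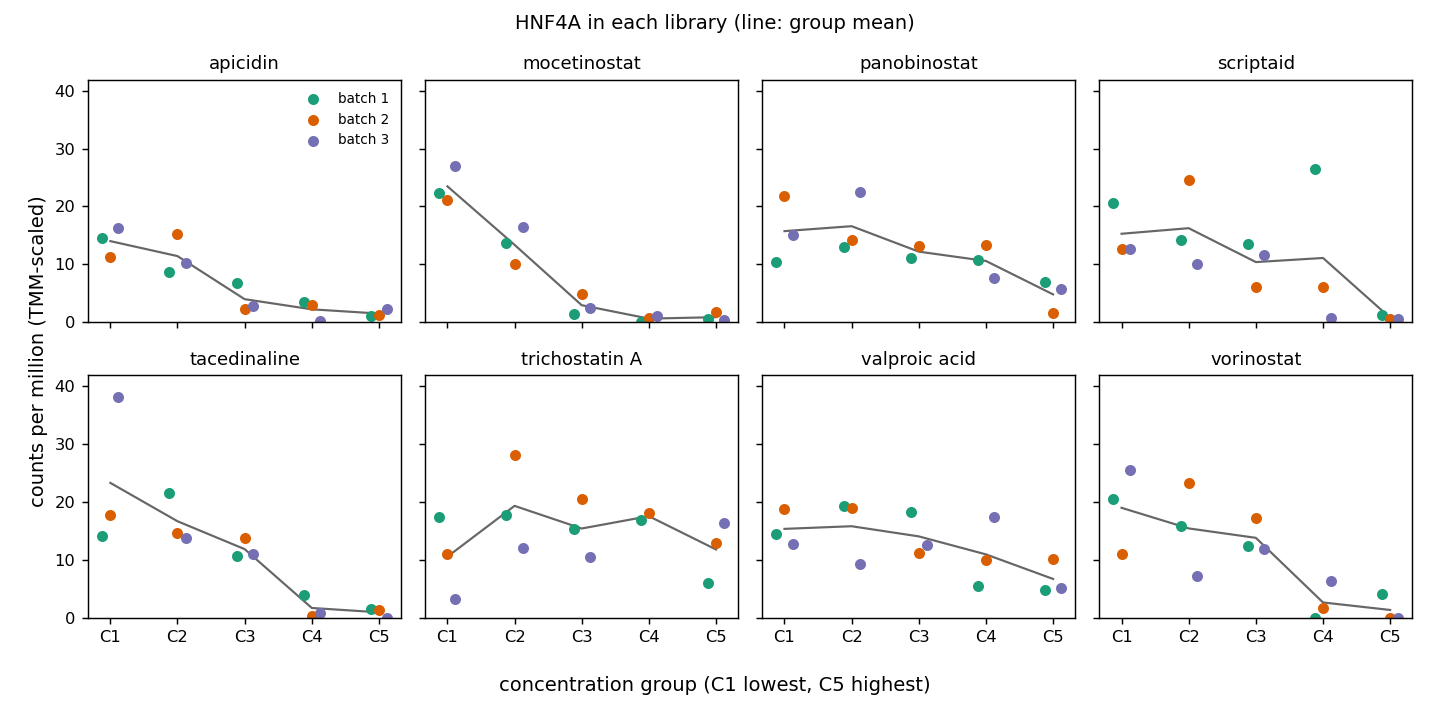
HNF4A in CPM (y axis, linear, from 0) at C1 to C5 (x axis) in each of the 118 libraries, 1 panel for each chemical, with points coloured by HepaRG batch and lines through group means. Mocetinostat, tacedinaline, vorinostat, apicidin and scriptaid end at or below 4.09 CPM at C5, and the trichostatin A library of batch 3 at C1 lies at 3.29.

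Of the FOXA factors, FOXA1 fell in 6 chemicals, FOXA2 in 3 and FOXA3 in 1. These forkhead proteins share a DNA-binding domain and occupy many of the same liver enhancers. FOXA1 (chr14:37589552-37595249, minus strand) had 18.8, 15.6 and 24.6 CPM at C1 of vorinostat and 2.45, 1.90 and 0.585 at C5 (-3.48 ± 0.52, edgeR adjusted p = 1.25e-06). In scriptaid it had 21.2, 17.9 and 22.1 CPM and then 0.85, 3.41 and 1.45 (-3.26 ± 0.61, edgeR adjusted p = 0.000556). In both chemicals every C5 library was below every C1 library. In scriptaid FOXA1 was called at C5 only: the C3 libraries were at 18.6, 4.03 and 9.12 CPM (-0.97 ± 0.51, edgeR adjusted p = 0.547) and the C4 libraries at 32.7, 13.7 and 12.3 (-0.04 ± 0.50, edgeR adjusted p = 0.982), and both groups overlapped C1. In apicidin FOXA1 went from 30.5, 20.8 and 23.2 CPM to 3.68, 4.16 and 6.45 (-2.37 ± 0.38, edgeR adjusted p = 7.97e-05).

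Tacedinaline gave 17.5, 18.3 and 29.0 CPM of FOXA1 at C1, 4.37, 1.69 and 0.613 at C4, and 4.50, 5.86 and 4.95 at C5. The change was thus -3.32 ± 0.53 at C4 and -2.02 ± 0.49 at C5, both called (edgeR adjusted p = 2.16e-06 and 0.000734). The difference between C4 and C5 was not tested. The smaller falls were -1.77 ± 0.51 in mocetinostat (edgeR adjusted p = 0.0152) and -1.0 ± 0.30 in panobinostat (edgeR adjusted p = 0.0246). Both were lost without some batch, the panobinostat call without batch 1 or 3 and the mocetinostat call without batch 2. The panobinostat call was also lost in the joint fit of all libraries (-0.99, edgeR adjusted p = 0.0883). In trichostatin A FOXA1 had 26.3, 27.5 and 10.5 CPM at C1 and 19.1, 19.7 and 25.2 at C5 (0.01 ± 0.32).

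FOXA2 (chr20:22580998-22585490) fell in tacedinaline, mocetinostat and apicidin. In tacedinaline its CPM were 26.7, 10.6 and 20.4 at C1 and 6.00, 4.14 and 4.95 at C5 (-1.85 ± 0.47, edgeR adjusted p = 0.00139). In mocetinostat they were 24.4, 20.9 and 22.4 and then 2.35, 6.45 and 11.0 (-1.71 ± 0.53, edgeR adjusted p = 0.0223), and this call was lost without batch 1 (adjusted p = 0.0785) or batch 2 (0.178). The lowest mocetinostat group was C4, with 2.89, 4.23 and 3.27 CPM (-2.65 ± 0.56, edgeR adjusted p = 0.00252). The C4 call was lost without batch 2 (edgeR adjusted p = 0.0661). In apicidin C1 had 12.2, 11.1 and 17.6 CPM and C5 had 5.00, 10.0 and 1.74. That call (-1.27 ± 0.48, edgeR adjusted p = 0.0485) was lost with upper-quartile factors, with library totals alone, and without batch 1 or 3, where it was -0.63 (adjusted p = 0.389) without batch 3. In the other 5 chemicals FOXA2 changes lay between -1.04 and -0.30 and were not called. In vorinostat, for example, C1 had 9.41, 7.53 and 15.2 CPM and C5 7.36, 6.18 and 2.34 (-0.94 ± 0.55, edgeR adjusted p = 0.157).

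FOXA3 (chr19:45864326-45873797) was low throughout, and its calls were few. In apicidin it went from 7.78, 9.92 and 7.29 CPM to 3.68, 1.96 and 1.49 (-1.80 ± 0.54, edgeR adjusted p = 0.0149), with no overlap, and the call was lost without batch 2 (adjusted p = 0.152) or batch 3 (0.102). Changes of like size were not called in valproic acid (-1.78 ± 0.63, edgeR adjusted p = 0.0707), tacedinaline (-1.76 ± 0.78, edgeR adjusted p = 0.0665) and vorinostat (-1.92 ± 0.85, edgeR adjusted p = 0.0583). DESeq2 called all 3 of these (adjusted p = 0.0307, 0.0395 and 0.0337), and the valproic acid change was also called with batch as a block (-1.94, adjusted p = 0.0365). At C5 of vorinostat batches 1 and 2 had 0 counts and batch 3 had 5.26 CPM. By trend FOXA3 was called lower in apicidin, tacedinaline and vorinostat. The trend call in tacedinaline was lost without any 1 batch (adjusted p = 0.277, 0.0617 and 0.0588 without batches 1, 2 and 3) and with library totals (0.0632), that in vorinostat without batch 1 (0.104) or 2 (0.164), and that in apicidin without batch 2 (0.0525) or 3 (0.0519). In trichostatin A the fitted values were above 0 (0.81 ± 0.63 at C5) with 3.79, 2.75 and 0.299 CPM at C1, and without C1 replicate 3 the C5 value was 0.30.

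Of the C/EBP factors, CEBPA fell at C5 in apicidin and panobinostat, and CEBPB in mocetinostat. CEBPA (chr19:33299934-33302534, minus strand) drives genes of glucose and lipid metabolism and restrains division of hepatocytes. In apicidin it had 18.3, 15.6 and 13.8 CPM at C1 and 3.68, 1.22 and 7.94 at C5 (-1.88 ± 0.54, edgeR adjusted p = 0.0116), a call that was lost without batch 1 (adjusted p = 0.0601) or batch 2 (0.123). The lowest apicidin group was C3, with 4.14, 3.03 and 0.785 CPM (-2.56 ± 0.57, edgeR adjusted p = 0.00333). In panobinostat it went from 13.2, 13.4 and 19.1 CPM to 9.77, 5.77 and 1.65 (-1.42 ± 0.49, edgeR adjusted p = 0.0487). This call lies at the threshold: it was lost with RLE, upper-quartile or no scaling factors (adjusted p = 0.051, 0.0558 and 0.0645), in a joint fit of all libraries and without any 1 batch, with a value of -0.79 without batch 3.

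CEBPA did not have its lowest group mean at C5 in every chemical. In scriptaid its values were 10.8, 11.0 and 10.3 CPM at C1, 2.11, 1.15 and 4.56 at C3, 5.30, 3.34 and 2.16 at C4, and 17.4, 6.25 and 23.7 at C5. All C3 and C4 libraries thus lay below all C1 libraries, while C5 overlapped C1 (0.59 ± 0.57, edgeR adjusted p = 0.461). The C3 and C4 changes of scriptaid (-1.99 ± 0.62 and -1.51 ± 0.63) were not called (edgeR adjusted p = 0.161 and 0.187). The C3 change was called by DESeq2 (adjusted p = 0.0459). With edgeR it was called in the joint fit (adjusted p = 0.0261), without the filter (0.0496), without batch 3 (0.0338) and without scriptaid C4 replicate 3 (0.0352). In mocetinostat the C4 group was called (-1.25 ± 0.41, edgeR adjusted p = 0.0352) and C5, with 18.2, 7.74 and 14.1 CPM, was not (-0.67 ± 0.40, edgeR adjusted p = 0.223). That C4 call was lost with library totals (edgeR adjusted p = 0.0601) and without batch 2 (0.184) or 3 (0.255). C4 was not tested against C5. By trend CEBPA was called lower in 3 chemicals, mocetinostat and panobinostat among them. The mocetinostat trend call was lost with library totals (edgeR adjusted p = 0.0835), in the joint fit (0.0598) and without batch 2 (0.215) or 3 (0.17). The panobinostat trend call was lost in the joint fit (edgeR adjusted p = 0.0716) and without batch 2 (0.0602) or 3 (0.181). In tacedinaline CEBPA had 11.7, 13.3 and 11.3 CPM at C1 and 3.00, 16.2 and 14.4 at C5 (-0.02 ± 0.47), where batches 2 and 3 were above C1 and batch 1 below. The group mean of CEBPA was lowest at C3 in 3 chemicals, at C4 in 3 and at C5 in 2, while that of HNF4A was lowest at C5 in 6.

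**Figure D3:**
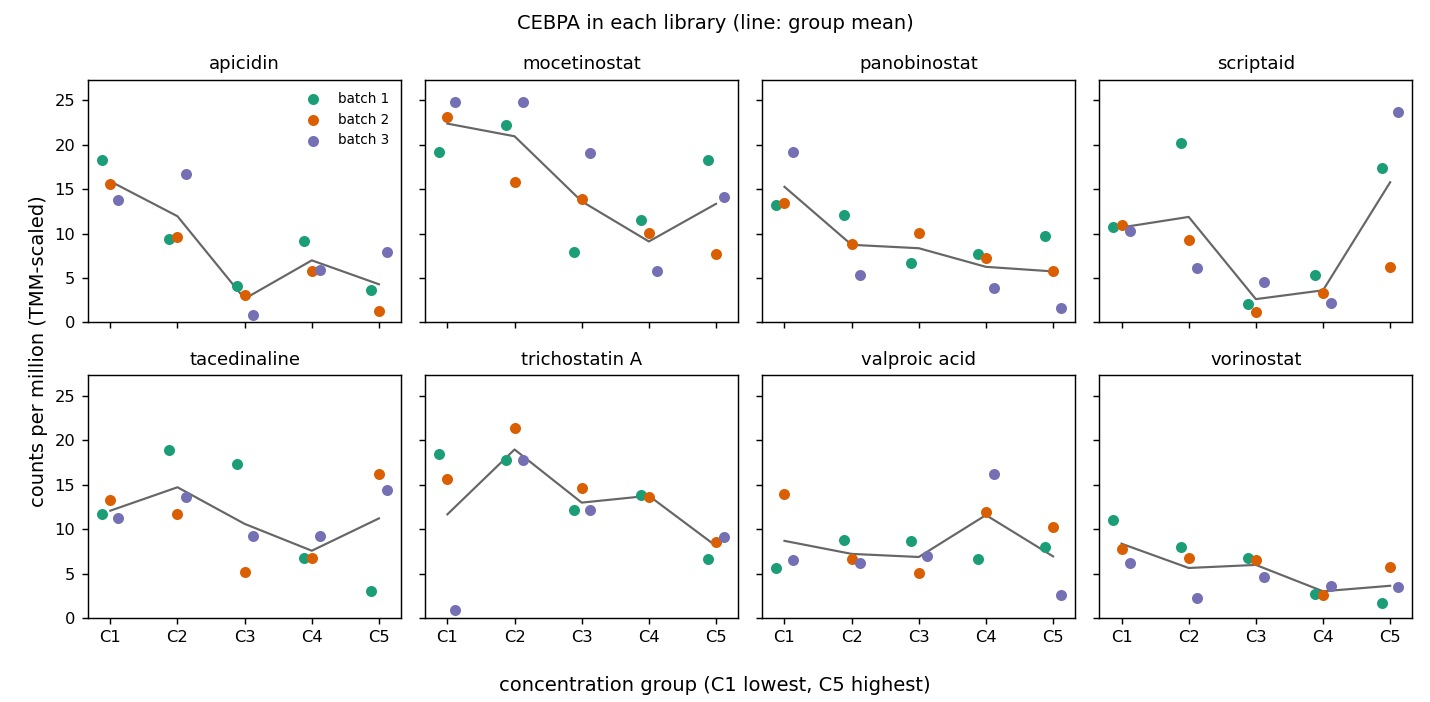
CEBPA in CPM (y axis, linear, from 0) at C1 to C5 (x axis) in each of the 118 libraries, 1 panel for each chemical, with points coloured by HepaRG batch and lines through group means. In scriptaid the C3 libraries lie between 1.15 and 4.56 CPM and the C5 libraries between 6.25 and 23.7.

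CEBPB (chr20:50190583-50192690, plus strand), which mediates acute-phase and stress responses, was called at C5 in 1 chemical. In mocetinostat it went from 284, 320 and 266 CPM to 127, 96.2 and 136 at C5 (-1.21 ± 0.25, edgeR adjusted p = 0.00152), and C4 was also called (-0.80 ± 0.25, edgeR adjusted p = 0.0269). The C4 call was lost without batch 1 (edgeR adjusted p = 0.0682) or 2 (0.306). Without batch 2 the C5 value was -1.0 and was not called (adjusted p = 0.0669). At C2 of mocetinostat batches 1 and 2 had 433 and 469 CPM and batch 3 had 264 (0.50 ± 0.24, edgeR adjusted p = 0.277). Without that batch 3 library CEBPB was called higher at C2, by 0.74 on the log2 scale (adjusted p = 0.0132). In apicidin the C1 values were 239, 224 and 226 CPM and the C5 values 248, 246 and 271, a change of 0.16 ± 0.13 (edgeR adjusted p = 0.371). Outside mocetinostat the C5 changes of CEBPB lay between -0.46 (scriptaid) and 0.25 (vorinostat), and none was called.

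ONECUT1 (chr15:52755053-52790336, minus strand), a cut-homeodomain factor needed for biliary and hepatocyte development, fell on 1 or both probes in 5 chemicals. Both probes were called in tacedinaline and vorinostat, ONECUT1_15460 alone in scriptaid, and ONECUT1_4810 alone in apicidin and mocetinostat. In vorinostat ONECUT1_15460 went from 8.86, 5.77 and 7.16 CPM to 0, 0 and 0.585 (edgeR adjusted p = 0.000556). That is 62 counts at C1 against 1 at C5, a ratio of 34.7 with an exact 95% interval from 6.00 to 1391 for counting error. ONECUT1_4810 had 7.75, 4.02 and 5.60 CPM and then 0, 0 and 1.75 (edgeR adjusted p = 0.0206), or 48 against 3 counts, a ratio of 8.95 with an interval from 2.88 to 44.9.

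In tacedinaline the 2 ONECUT1 probes were also near 0 at C5. ONECUT1_15460 had 5.83, 15.0 and 6.64 CPM at C1 and 0, 0 and 3.71 at C5 (-2.82 ± 0.86, edgeR adjusted p = 0.00704). ONECUT1_4810 had 2.50, 10.3 and 4.67 CPM and then 0.50, 0 and 0.825 (edgeR adjusted p = 0.00451), 57 against 3 counts, a ratio of 16.1 with an interval from 5.23 to 80.3. In apicidin the probes gave -1.10 ± 0.62 for ONECUT1_15460 (not called, edgeR adjusted p = 0.192) and -3.13 ± 0.91 for ONECUT1_4810 (edgeR adjusted p = 0.0118). The difference between the probes in apicidin, taken within batches, was 1.42 ± 1.89 (SD, n = 3), which is within the spread of the batches. In panobinostat, trichostatin A and valproic acid neither probe was called at C5. Without 1 batch several of the ONECUT1 calls were lost. For ONECUT1_15460 these were the call in tacedinaline without batch 2 (adjusted p = 0.25) and that in scriptaid without batch 1 (0.214) or 2 (0.162) or with library totals (0.0506). For ONECUT1_4810 they were vorinostat without batch 1 (0.183) or 2 (0.0717), mocetinostat without batch 1 (0.0993) or 2 (0.0819), and apicidin without batch 2 (0.0767). In valproic acid ONECUT1_15460 was called at C4 (-1.68 ± 0.51, edgeR adjusted p = 0.034) while ONECUT1_4810 was at 5.57, 4.83 and 23.0 CPM there (1.54 ± 0.55, edgeR adjusted p = 0.0678), so the fitted changes of the probes of 1 gene lay on opposite sides of 0. The ONECUT1_15460 call at C4 was lost in the joint fit (edgeR adjusted p = 0.163) and without batch 1 (0.265) or 3 (0.154).

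ONECUT2, the closest relative of ONECUT1 among the other liver factors, changed in the opposite direction. Its probe ONECUT2_12180 rose at C5 in 7 chemicals, all but trichostatin A, with a median log2 change of 1.70 over the 8. Group means of ONECUT2 outside trichostatin A lay between 5.31 and 8.45 CPM at C1 and between 17.2 and 33.7 CPM at C5. In vorinostat ONECUT2 changed by 2.06 ± 0.41 (edgeR adjusted p = 8.55e-05) and in tacedinaline by 1.15 ± 0.39 (edgeR adjusted p = 0.0165), the 2 chemicals in which both ONECUT1 probes fell. In panobinostat and valproic acid ONECUT2 rose (1.93 ± 0.41 and 1.49 ± 0.40) where ONECUT1 was not called.

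**Figure D4:**
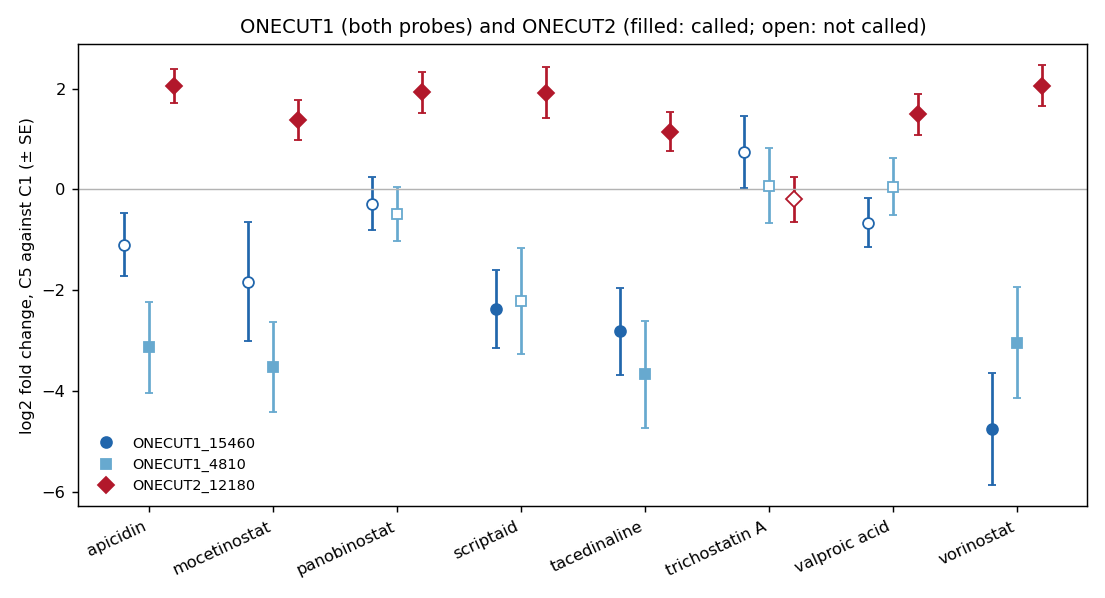
Fitted log2 change at C5 against C1 with its SE (y axis) for both ONECUT1 probes and the ONECUT2 probe in 8 chemicals (x axis). Filled symbols are called. ONECUT2 is called above 0 in 7 chemicals, and ONECUT1 is called below 0 on 1 or both probes in 5.

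PROX1 (chr1:213983151-214041510), a homeodomain factor needed for hepatoblasts to leave the liver bud, fell at C5 in 7 chemicals. In tacedinaline it had 142, 119 and 119 CPM at C1 and 17.0, 8.62 and 5.77 at C5 (-3.57 ± 0.27, edgeR adjusted p = 1.76e-14). In mocetinostat it had 127, 94.0 and 83.7 CPM and then 12.5, 10.8 and 14.4 (-2.94 ± 0.27, edgeR adjusted p = 6.74e-07). In scriptaid it had 173, 125 and 102 CPM and then 17.0, 24.7 and 21.7 (-2.60 ± 0.33, edgeR adjusted p = 1.14e-05). The lowest C1 library of these chemicals was more than 3 times above the highest C5 library. Vorinostat gave 112, 117 and 99.0 CPM and then 28.6, 20.4 and 23.4 (-2.10 ± 0.22, edgeR adjusted p = 7.31e-10), and apicidin gave 110, 97.8 and 77.0 and then 36.3, 35.9 and 35.5 (-1.40 ± 0.21, edgeR adjusted p = 3.98e-05).

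The PROX1 changes in panobinostat and valproic acid were smaller and were called. Panobinostat went from 120, 113 and 102 CPM to 52.2, 68.0 and 58.6 (-0.92 ± 0.20, edgeR adjusted p = 0.00223), and valproic acid from 139, 113 and 135 to 81.3, 75.9 and 70.0 (-0.77 ± 0.16, edgeR adjusted p = 0.00295). Both calls were lost without batch 1 (adjusted p = 0.0571 and 0.105) with values of -0.78 and -0.77. In trichostatin A PROX1 was at 103, 129 and 37.1 CPM at C1 and at 63.5, 83.3 and 111 at C5 (-0.04 ± 0.31), and the value without C1 replicate 3 was -0.42 (adjusted p = 0.418). PROX1 was called at C4 in 6 chemicals, among them valproic acid (-0.95 ± 0.16, edgeR adjusted p = 0.000415), and at C3 in mocetinostat and tacedinaline (-1.55 ± 0.26 and -1.46 ± 0.23). The C4 call was lost in valproic acid without batch 1 (edgeR adjusted p = 0.0643) and in scriptaid without batch 1 (0.0847) or 2 (0.215). The mocetinostat call at C3 was lost without batch 2 (edgeR adjusted p = 0.0556). In scriptaid the C3 change of PROX1 was not called (-1.23, edgeR adjusted p = 0.0557). It was called by DESeq2 (adjusted p = 0.00676), in the joint edgeR fit (0.00022) and by edgeR without scriptaid C4 replicate 3 (0.00269). At C2 the lowest PROX1 value was that of mocetinostat, with 36.9, 43.4 and 56.0 CPM, all below the C1 libraries (-1.10 ± 0.25, edgeR adjusted p = 0.0759). It was called without mocetinostat C2 replicate 3, the library of that group with the highest PROX1 (-1.24, adjusted p = 0.00338), and by DESeq2 (adjusted p = 0.0023).

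**Figure D5:**
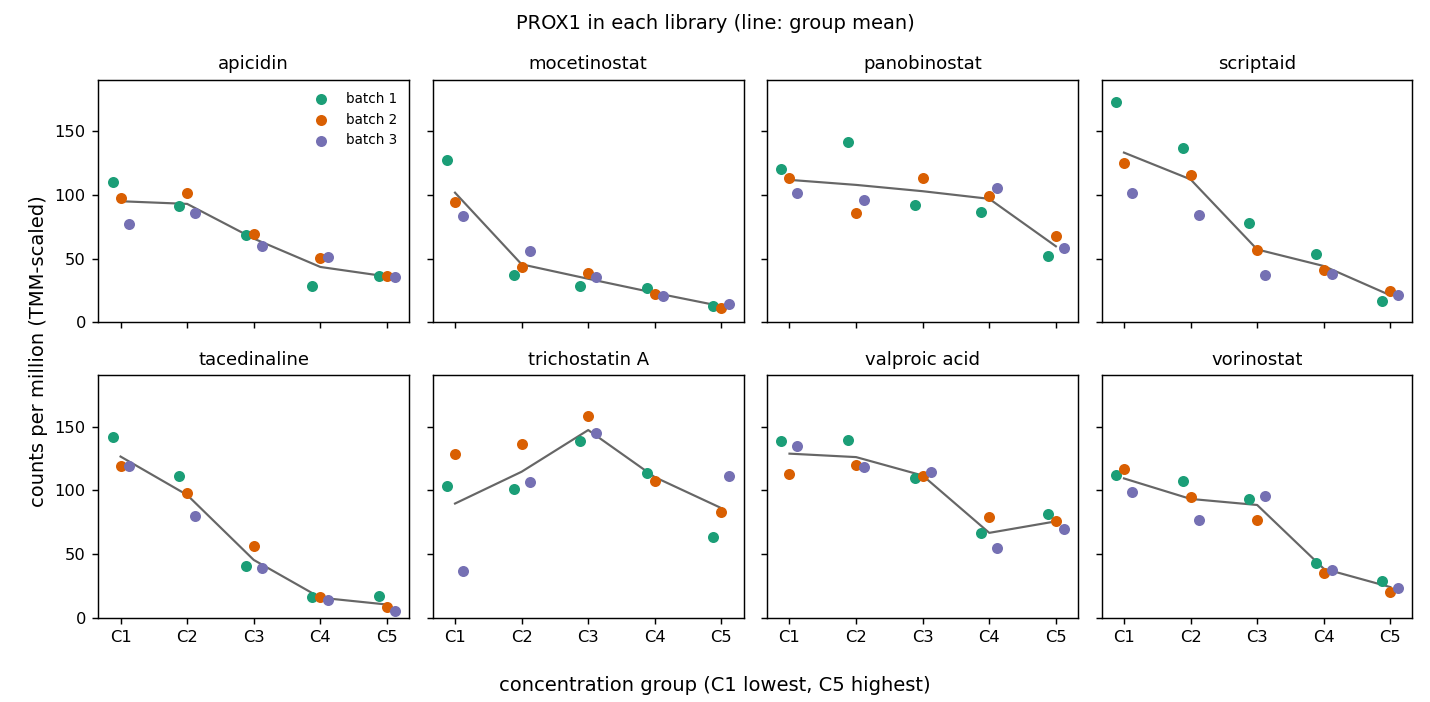
PROX1 in CPM (y axis, linear, from 0) at C1 to C5 (x axis) in each of the 118 libraries, 1 panel for each chemical, with points coloured by HepaRG batch and lines through group means. Tacedinaline libraries go from 119 CPM or more at C1 to 17.0 or less at C5, and trichostatin A libraries overlap between C1 and C5.

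TBX3 (chr12:114670255-114684175), a T-box repressor of hepatoblasts, was near the limit of detection. TBX3_26123 had 0 counts in 108 of 118 libraries and never more than 4, and TBX3_6987 had 0 in 41 and at most 18. The highest TBX3_6987 values were those of tacedinaline C5, with 1.5, 6.21 and 2.47 CPM, where C1 had 0, 2.07 and 1.23. Both probes were filtered out of the tests within chemicals, so TBX3 has no fitted change against C1 here.

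The changes at C5 differed between chemicals for 6 of 10 probes. In a joint edgeR fit of the 118 libraries, whose filter also kept TBX3_6987, the hypothesis of equal C5 against C1 changes in 8 chemicals was rejected for 30.3% of all features. Among the factors it was rejected for PROX1 (adjusted p = 3.68e-16), FOXA1 (3.05e-06), HNF4A (9.37e-06), CEBPB (2.6e-05), ONECUT1_4810 (0.00626) and ONECUT1_15460 (0.0104). It was not rejected for CEBPA (0.138), FOXA3 (0.122), FOXA2 (0.296) and TBX3_6987 (0.865), so a call of these genes in 1 chemical and not in another is not shown to be a difference. Tested over the other 7 chemicals, where 21.4% of all features were called, ONECUT1_15460 was not called (adjusted p = 0.0853) and the other 5 were. With all 8 chemicals but without batch 1, neither ONECUT1 probe was called. Since the concentrations differ, this compares the ranges tested and not equal doses.

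Differences already present at C1 would not be seen against C1 of the same chemical. Each C1 group was therefore compared with the other C1 groups of its plate. Of 80 such tests over the members, 0 were called by edgeR, with 7 at an unadjusted p under 0.05 and a lowest adjusted p of 0.0767. Of all features, 0.348% were called in either direction over the 8 chemicals. The other C1 groups had also received an inhibitor, so a change at C1 shared by the chemicals of a plate cannot be seen this way. Well position and chemical cannot be told apart in this comparison.

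Other transcription factors of the liver were called lower more often than higher. Of 239 tests over probes for these factors at C5, 101 were lower and 16 higher, with a median log2 change of -0.85. Of all features 13.4% were lower and 11.6% higher. NR1I3 (CAR), a nuclear receptor for drugs, had the lowest medians among probes tested in all 8 chemicals: NR1I3_90298 fell in 7 chemicals, from group means of 23.4 to 42.7 CPM at C1 to between 0 and 9.44 at C5 outside trichostatin A, and NR1I3_87852 fell in 6. GATA6, a zinc-finger factor of early endoderm, had the second highest median, 0.56, and rose in panobinostat alone. HNF4G, a paralogue of HNF4A named after its values were seen, fell in 7 chemicals, from 39.7 to 54.5 CPM at C1 to between 3.45 and 30.1 at C5. The list was chosen with earlier results of these data known, and no test of it as a set was made.

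Products of hepatocyte genes that these factors are known to drive were mostly lower. Of 339 tests at C5, 278 were lower and 0 higher, against 13.4% and 11.6% of all features. The median log2 change was -2.76, or -2.72 with the 30 tests at the floor of 3 counts per library set to their bound. CYP8B1, the sterol 12-hydroxylase of bile acid synthesis, fell in 7 chemicals, from group means of 6.75 to 20.3 CPM at C1 to between 0 and 2.24 at C5 outside trichostatin A. CYP3A4_90076, a probe for the main drug-oxidising enzyme of the liver, also fell in 7. At the other end of the list, TTR, the thyroxine carrier transthyretin, fell in 4 chemicals with a median of -0.73, and SERPINA1, which encodes alpha-1-antitrypsin, fell in 7 with a median of -1.38. Without trichostatin A C1 replicate 3 the count of lower calls was 291.

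Among markers of other cell types, the balance of calls at C5 differed between lists. Biliary and progenitor calls lay in both directions, while stromal calls and endothelial and blood calls were mostly or all lower. Over all features 13.4% were lower and 11.6% higher. Of 76 tests over biliary and progenitor markers at C5, 10 were lower and 13 higher. SOX9, a factor of biliary and progenitor cells, rose in 5 chemicals (fitted changes from 0.75 to 1.85 over the 8), and SPP1, which encodes osteopontin, rose in 5 (median 1.27), while ANXA4, an annexin of biliary cells, fell in 5 (median -1.29). The summed biliary and progenitor markers, of which EPCAM was at the floor, lay between 63.1 and 161 CPM at C1 (median 84.0) and between 63.5 and 226 at C5 (median 135). The group median was higher at C5 than at C1 in all 8 chemicals, going from 84.5 to 211 CPM in apicidin, from 77.2 to 144 in panobinostat and from 70.0 to 124 in valproic acid. Stromal markers were lower in 34 and higher in 8 of 91 tests, with COL3A1 lower in 7 chemicals and COL1A1 higher in 6. Endothelial and blood markers were lower in 4 and higher in 0 of 26 tests, and PTPRC and HBB had 0 counts in every library. The part of these cell types in the members' changes was not tested.

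The features whose group means moved most like each factor were found by Pearson's r of the change in mean log2 CPM from C1 over the 32 groups C2 to C5, among 11279 features tested in all chemicals. The 4 groups of a chemical share its C1 libraries, so this is a description. Nearest to HNF4A were KANK1 (0.974), CYP3A4_88797 (0.973) and APOL6 (0.972), and nearest to PROX1 were GC (0.970), which encodes vitamin D binding protein, STARD10 (0.966) and GATM (0.965). FOXA1 was nearest to FIS1 (0.921), FOXA2 to CDA (0.896) and FOXA3 to SLC38A3 (0.916). ONECUT1_15460 was nearest to AMBP (0.928) and ONECUT1_4810 to B3GNT3 (0.900). CEBPB was nearest to IL1R1 (0.853), and CEBPA had the lowest best match of the 9 probes, OCLN (0.784).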

How the data were processed

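Per the labels, libraries were made by TempO-Seq from lysates of HepaRG cells, and the authors deposited raw counts per probe, with no normalization. The submitters' processing notes name bcl2fastq 2.20.422, fastp 0.23.2, STAR 2.7.10b and DESeq2 1.38.0, and how each was used is not given in the sources used here. Of 22069 rows, 1 was left out because 88 of 118 libraries had no value in it. Groups came from the labels, and total counts were between 1061359 and 5250260 (median 3702007). Members and gene lists were chosen with earlier results of these data known.

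Counts were tested within each chemical with edgeR 4.0.16 in R 4.3.3 (filterByExpr, TMM factors, quasi-likelihood F-test, Benjamini-Hochberg adjustment over all features of that chemical, 11631 to 13104). A feature was called at an adjusted p under 0.05 and a fold of at least 1.5. Differences between chemicals, and C1 against the other C1 groups of a plate, came from 1 fit of all 118 libraries. Level is CPM with TMM-scaled library sizes. A group was at the floor when each library had at most 3 counts. Counting intervals cover counting error only, since these reads carry no molecular identifiers here. The scripts were tested on simulated data. Named list genes were those with the 2 lowest and 2 highest median changes at C5 among features tested in all 8 chemicals, and HNF4G was added later.

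Replicate numbers name HepaRG batches in the labels, so they pair samples. Deviations from the group mean correlated with a median r of 0.0231 over 232 pairs of the same batch and -0.0109 over 464 pairs of different batches. All replicates are of 1 cell line, and each lot gave at most 1 library per group. The p-values thus measure the spread between libraries, in which differences of lot and of library cannot be told apart. Alternatives were DESeq2 1.42.0, other scaling factors, no filter, a batch block, a joint fit, and leaving out batches or single libraries. Promoter sequences are RefSeq's on GRCh38.p14.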

Additional observations from a re-analysis of the deposited data

Results flagged for a closer look

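The change at C5 against C1 differed between the 8 chemicals, by the F-test of equal changes in a joint edgeR fit of 118 libraries, for PROX1 (adjusted p = 3.68e-16), FOXA1 (adjusted p = 3.05e-06), HNF4A (adjusted p = 9.37e-06), CEBPB (adjusted p = 2.6e-05), ONECUT1_4810 (adjusted p = 0.00626) and ONECUT1_15460 (adjusted p = 0.0104). The changes of PROX1 ran from -3.57 in tacedinaline to -0.04 in trichostatin A, those of FOXA1 from -3.48 in vorinostat to 0.01 in trichostatin A, and those of HNF4A from -4.59 in mocetinostat to 0.16 in trichostatin A. CEBPB ran from -1.21 in mocetinostat to 0.25 in vorinostat. Concentrations differ between the chemicals, and 30.3% of all features were called in the same test. Both ONECUT1 calls were lost without batch 1 (edgeR adjusted p = 0.317 for ONECUT1_4810 and 0.242 for ONECUT1_15460). That of ONECUT1_15460 was also lost without batch 2 (0.23).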

How the results depend on the processing

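No called result changed sign under the alternatives run. Some values that were not called did, among them HNF4A (0.16 to -0.27), FOXA1 (0.01 to -0.33) and ONECUT1_4810 (0.07 to -0.45) in trichostatin A at C5 without C1 replicate 3. The 33 falls of member probes at C5 became 30 to 37 under other tools, scalings, filters, the batch block and the joint fit, and 21 to 29 when 1 batch was left out. With batch as a replicate block there were 34, FOXA3 in valproic acid among them, and 31 in place of 30 by trend. Each of the 3 libraries set apart left 33 when removed, and without scriptaid C4 replicate 3 there were 9 falls at C3 and 23 at C4. The trend count was 28 to 35, and 21 to 26 without 1 batch. At C4 the 22 falls became 12 to 18 without 1 batch, and 1 rise (ONECUT1_4810 in valproic acid) appeared with DESeq2, with library totals alone and without the filter. At C3 the 7 falls became 12 with DESeq2 and 11 in the joint fit, and 2 to 7 without 1 batch. At C2 the count of 0 falls became 1 (PROX1 in mocetinostat) with DESeq2, in the joint fit and without mocetinostat C2 replicate 3, and 0 to 1 without 1 batch. The 0 rises at C2 became 1 (CEBPB in mocetinostat) without mocetinostat C2 replicate 3. Rises of other liver factors at C5, 16, became 8 to 12 without 1 batch. The 6 member probes that differed between chemicals became 4 to 6, and those lost were ONECUT1 probes. The cause of these shifts was not tested. With library totals the median log2 change of all features at C5 was 0.27 in mocetinostat and 0.22 in tacedinaline, against 0.08 and 0.03 with TMM factors. At most 3 counts were seen in 83 of 118 libraries for TBX3_6987, 23 and 19 for ONECUT1_4810 and ONECUT1_15460, 16 for HNF4A and 8 for FOXA3, and folds of such groups are limited by depth.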
